A study of Mus musculus with 4 samples.

Results

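The epithelial alarmins Il33, Tslp and Il25 and the receptor chains Il1rl1, Crlf2, Il7r, Il17rb and Il18r1 were followed across the leukocytes of the mouse nasal mucosa. These 8 genes were picked by symbol from the 27998 genes of the count tables, and all 8 had at least 1 UMI (a counted transcript molecule) in each library. Single-cell RNA-seq had been performed on CD45+ cells of the nasal mucosa of C57BL/6 mice aged 8 weeks, CD45 being a surface protein of leukocytes. There were 4 groups with 1 library each, named Vehicle and Ribavirin, without OVA, and Vehicle-OVA and Ribavirin-OVA. OVA stands for ovalbumin, an egg protein used as allergen to model allergic rhinitis, and ribavirin is an antiviral drug. Series of 4 values are given in the order Vehicle, Vehicle-OVA, then Ribavirin, Ribavirin-OVA. No other allele or agent is named for them, the dose and timing of ribavirin are not given in the sources used here, and neither is the number of mice in a library. With 1 library a group no difference could be set against a spread between mice, so none was tested, and each interval given is a 95% interval that covers counting error only.

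The deposited tables held 10311 to 28277 barcodes and 91742940 to 171873110 UMIs a library, and 66171 of 79132 barcodes were kept. The median depth was 3389 to 4952 UMIs per barcode. The lowest depth of a deposited barcode was 501, 501, 1782 and 500 UMIs, so that the Ribavirin table lacked the shallow barcodes of the others. The part of this limit in shares of cells, class sizes and sums over all cells was not tested. At most 0.909% of the barcodes of the smaller library of a pair were shared with the other. Cells were placed in 22 classes by marker genes that did not include the 8 members, and a class is written with "-like" because its name was rebuilt here. In the CD45+ cells, 0.573% to 2.94% of a library was epithelial-like. In bulk sums over all cells, fewer cells of a type and less RNA per cell cannot be told apart.

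Alarmins are cytokines that barrier cells release when they are stressed or damaged. Interleukin-33 (IL-33, Il33) is kept in the nucleus of epithelial and stromal cells and binds ST2 (Il1rl1), which pairs with IL1RAP and signals through MyD88. Thymic stromal lymphopoietin (TSLP) binds CRLF2 together with the IL-7 receptor chain IL7R and signals through JAK kinases and STAT5. IL-25 (Il25), a product of tuft cells, binds IL17RB with IL17RA and signals through Act1. IL18R1 is the binding chain for IL-18, a relative of IL-33. In the airways these signals reach group 2 innate lymphoid cells (ILC2), T helper 2 cells, mast cells and basophils, which then make type 2 cytokines such as IL-4, IL-5 and IL-13.

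The members differed in the classes that held them. Taken over the 4 libraries, Il33 and Il25 were highest in epithelial-like cells, at 110.1 and 20.5 CPM (UMIs of the gene per 1e6 UMIs of the class), against 0.430 and 0.0611 in all other cells. Il1rl1 was highest in a CD3+ lymphoid cluster with ILC2 markers, at 2079 CPM against 14.9 elsewhere, a cluster seen in the OVA libraries only where its intervals overlap those of ILC2-like cells in both libraries, and Il17rb in ILC2-like cells, at 242 against 2.18. Il7r and Il18r1 were highest in a T cell class of clusters L1, L9, L11, L20 and L22, at 1461 and 701 CPM, against 153 and 57.8 elsewhere. It is drawn under its type 17 label, but L1 and L9 had 0 type 17 markers among their top 10 genes and L20 had 1, beside more of another class, so that it is compared by cluster only. Crlf2 was broad, with 184 CPM in its highest class, regulatory T cell-like cells, and 107 in all other cells. Tslp was near the limit of detection, with 1.82 CPM in macrophage-like cells and 0.413 in all other cells pooled. Epithelial-like cells were above macrophage-like cells in Ribavirin, at 1.77 against 1.27 CPM. A single class held 92.9% of the Il33 UMIs and 94.5% of the Il25 UMIs, but no class held more than 19.7% of those of Crlf2.

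**Figure D1:**
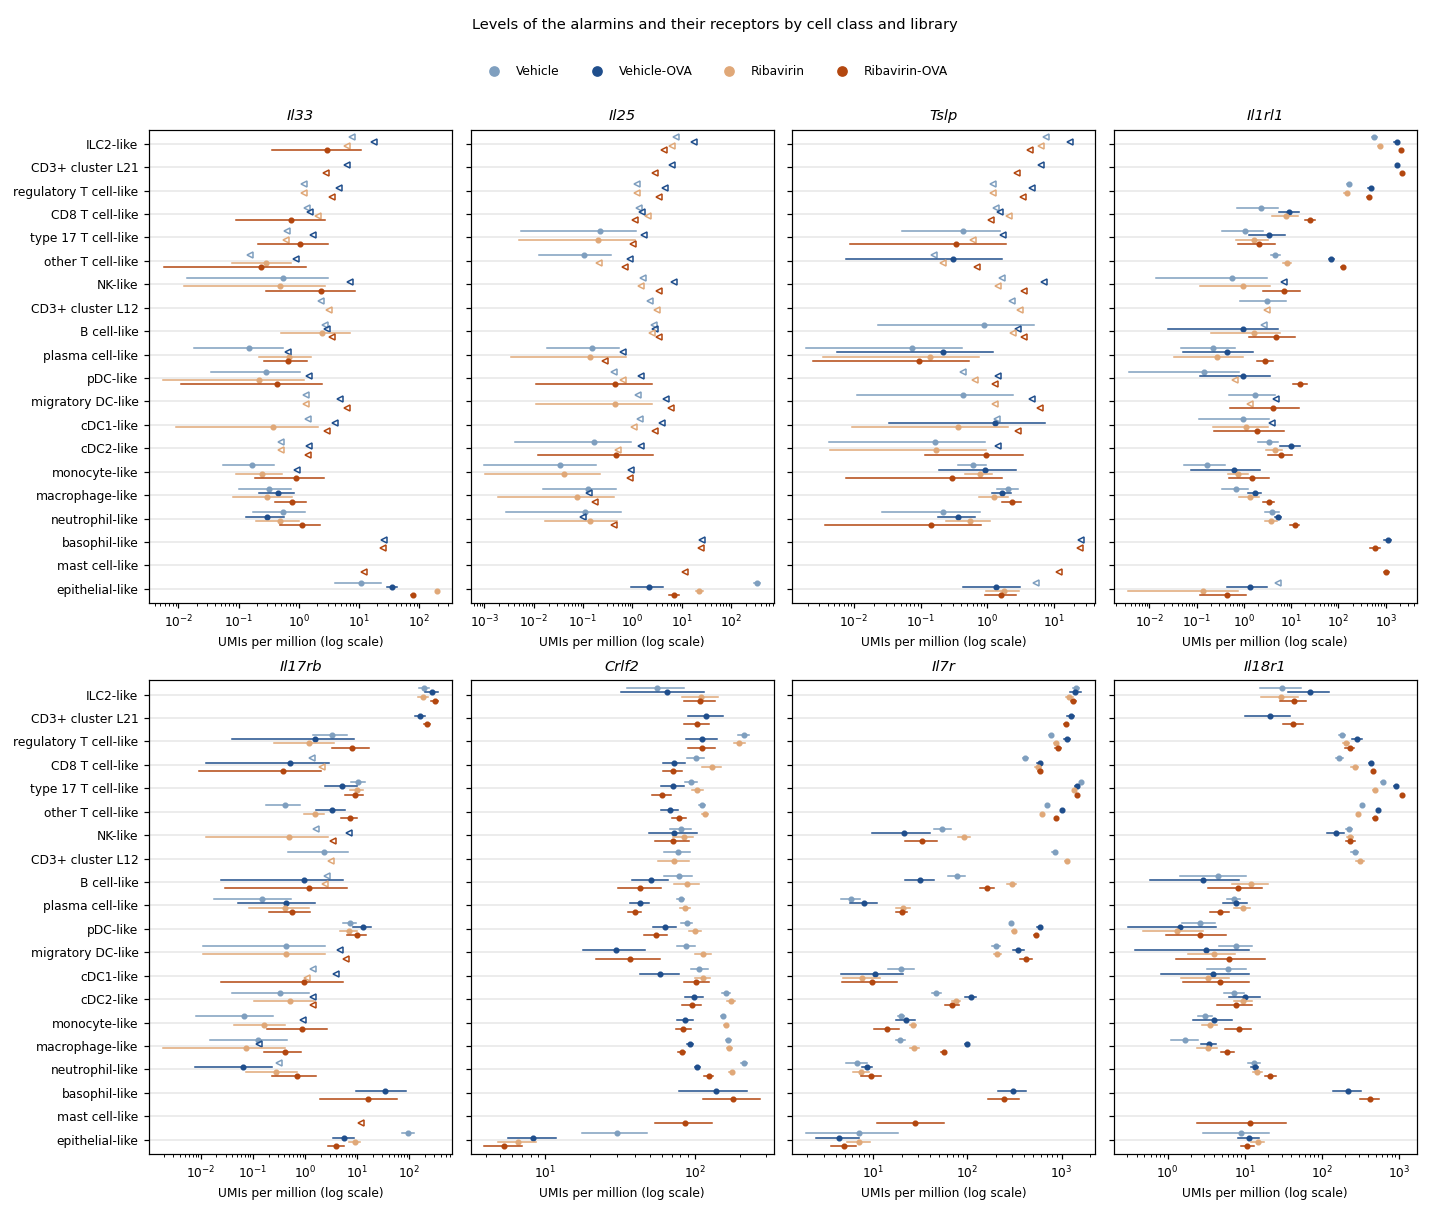
CPM (log axis) of each member by cell class. Each point is 1 library with at least 20 cells of the class, bars are exact Poisson 95% intervals, and open triangles mark the level that 3 counts would give where a library had 0 UMIs. Il33 and Il25 stand out in epithelial-like cells, Il1rl1 and Il17rb in ILC2-like cells and in the CD3+ cluster with ILC2 markers, and Crlf2 is spread over nearly all classes.

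Over all kept cells, Il1rl1 was higher with OVA under vehicle and under ribavirin, and Crlf2 was lower in both pairs. Il1rl1 had 6.98 CPM in Vehicle, 26.5 in Vehicle-OVA, 7.55 in Ribavirin and 69.7 in Ribavirin-OVA. The OVA libraries were 3.79-fold (3.51 to 4.10) and 9.23-fold (8.64 to 9.87) above their partners. Crlf2 had 138.8, 86.1, 118.6 and 63.9 CPM in the same order, ratios of 0.621 (0.604 to 0.638) and 0.539 (0.522 to 0.556) with OVA. Il17rb stood at 1.99, 2.46, 2.05 and 7.72, highest in Ribavirin-OVA, 3.76-fold (3.26 to 4.35) above Ribavirin. Il7r (231, 158, 182 and 205 CPM) and Il18r1 (89.9, 64.1, 66.7 and 99.7) were lower with OVA under vehicle, at ratios of 0.685 (0.671 to 0.699) and 0.712 (0.690 to 0.736). Under ribavirin both were higher with OVA, at 1.123 (1.10 to 1.15) and 1.5 (1.45 to 1.54).

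A difference was counted when the ratio, after adding 1 CPM to both levels, was past 2-fold. With OVA under vehicle 2 of 8 members were higher past 2-fold (Il33 and Il1rl1) and 1 was lower (Il25), where 9.44% of 16155 genes were higher and 5.19% lower. With OVA under ribavirin 2 of 8 were higher (Il1rl1 and Il17rb) and 0 lower, against 6.32% and 1.16% of 16887 genes. The median log2 ratio of the members was -0.15 and 0.19, beside 0.03 and 0.29 for all genes. Ribavirin against vehicle without OVA gave 1 member higher (Il33) and 0 lower, against 6.14% and 0.0896% of genes. With OVA it gave 3 higher (Il33, Il1rl1 and Il17rb) and 0 lower, against 7.56% and 2.84%. The Il33 values depended on which barcodes were kept. Centred on the median ratio of all genes, the share of calls that were higher went from 84.5% to 44.2% for OVA under ribavirin and from 72.7% to 42.0% for ribavirin with OVA. It stayed nearly the same for ribavirin without OVA, at 98.6% and 99%, and for OVA under vehicle, at 64.5% and 62.2%.

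Il33 (ENSMUSG00000024810, chromosome 19, 29925114 to 29960718, plus strand, GRCm38) had 28, 192, 1477 and 775 UMIs in the kept cells of Vehicle, Vehicle-OVA, Ribavirin and Ribavirin-OVA. Epithelial-like cells held 21.4%, 68.2%, 97.0% and 93.8% of them, and in Vehicle-OVA 5 unnamed cells held 42 of the 192. In epithelial-like cells Il33 stood at 10.6 (3.90 to 23.1), 35.1 (29.4 to 41.7), 195.5 (185.5 to 205.9) and 78.8 (73.2 to 84.7) CPM, in 131, 122, 345 and 249 cells. A UMI was seen in 3.05%, 23.8%, 46.7% and 27.3% of epithelial-like cells, at a median depth of 4056, 25231, 15706 and 30402 UMIs, and in 0.0893% to 0.395% of neutrophil-like cells, which should lack the gene, at a median depth of 2022 to 2895. The value of Vehicle rests on 6 UMIs. The class was a different set of clusters in each library. Cluster 29, led by Reg3g, was its largest in all libraries but Vehicle. In Vehicle 83 cells lay in cluster 32, 46 in cluster 31 and 1 each in clusters 29 and 34. Clusters 31 and 32 had 0 epithelial markers among their top 10 genes. Under ribavirin the log2 OVA ratio of the class was -1.31, but between -0.13 and -0.22 with marked doublets kept, with at least 2000 UMIs per cell or at Leiden resolutions of 0.5 and 2.0.

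Most Il33 of the Vehicle library sat in barcodes that had been marked as doublets. The marked barcodes held 421, 143, 335 and 131 Il33 UMIs, against the 28, 192, 1477 and 775 of the kept cells. Of the marked barcodes with Il33, 83 of 89 in Vehicle, 9 of 11 in Vehicle-OVA, 69 of 76 in Ribavirin and 21 of 24 in Ribavirin-OVA had at least 3 of the 10 epithelial markers. Ptprc, which codes for CD45, was found in 26, 8, 36 and 11 of these epithelial barcodes. With the marked barcodes kept, Il33 over all cells was 2.71, 3.5, 11.1 and 10.7 CPM. The OVA ratio under vehicle then went from 10.7 (7.18 to 16.5) to 1.29 (1.116 to 1.49). Under ribavirin it was 0.942 (0.862 to 1.03) without and 0.960 (0.886 to 1.04) with the marked barcodes. The ratio of Ribavirin to Vehicle went from 49.5 (34.1 to 74.8) to 4.11 (3.71 to 4.57), and that of Ribavirin-OVA to Vehicle-OVA from 4.36 (3.71 to 5.13) to 3.06 (2.70 to 3.48). No direction with OVA under vehicle is therefore drawn for Il33, and in sums over all cells the ribavirin libraries were higher in both settings. The 10 epithelial markers summed to 121, 2314, 1863 and 7942 CPM over all kept cells, higher with ribavirin too. Their part in the Il33 ratios was not tested. Inside the main Il33 cluster with marked barcodes kept, the ribavirin ratios were 0.977 without OVA and 0.978 with OVA.

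Within the main Il33 cluster the level was lower with OVA in both pairs when marked barcodes were kept. This cluster, led by Chil4, Reg3g, Bpifa1 and Cyp2g1 had 169, 103, 413 and 261 barcodes, of which 74.6%, 24.3%, 45.5% and 25.7% had been marked. Il33 stood there at 151 (137 to 167), 81.1 (71.5 to 91.5), 148 (141 to 155) and 79.3 (73.9 to 84.9) CPM. Both libraries with OVA were below both without. The OVA ratios were 0.536 (0.456 to 0.628) under vehicle and 0.536 (0.493 to 0.583) under ribavirin, and the ribavirin ratios were 0.977 without OVA and 0.978 with OVA. In barcodes without a Ptprc UMI the OVA ratios were 0.394 (0.295 to 0.518) and 0.444 (0.394 to 0.5). In those with one they were 0.801 (0.629 to 1.03) and 0.676 (0.597 to 0.765). Among the marked barcodes alone the ratio under vehicle was 1.23 (1.01 to 1.49) and under ribavirin 0.756 (0.608 to 0.935). Among the unmarked alone it was 0.757 (0.338 to 2.11) and 0.401 (0.366 to 0.440), the Vehicle value resting on 6 UMIs in 43 barcodes. The composition of the cluster therefore differed between the libraries, and its part in the ratios was not tested. With marked barcodes left out, the cluster led by Reg3g gave an OVA ratio of 0.366 (0.316 to 0.424) under ribavirin and the cluster led by Cyp2g1 gave 0.470 (0.418 to 0.529), while each had 1 cell in Vehicle. Other epithelial-like clusters differed with marked barcodes kept. The cluster led by Gpx6 and Bpifb4 had OVA ratios of 0.402 (0.185 to 0.840) and 0.909 (0.567 to 1.44). A cluster with Mup4 and Obp2a among its top genes went the other way under vehicle. Il33 stood there at 0 (0 to 0.914), 48.3 (34.7 to 65.6), 0.425 and 0.704 CPM, on 0, 41, 8 and 4 UMIs.

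Across 59 class and library points in 18 classes, the genes whose levels followed Il33 most closely were Pon1 (r = 0.970), Cyp2b10 (0.965) and Sult1b1 (0.962) of 14213 genes. Pon1 codes for a lactonase, Cyp2b10 for a cytochrome P450 and Sult1b1 for a sulfotransferase. The points share libraries and cell classes, so that r is a description only.

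**Figure D2:**
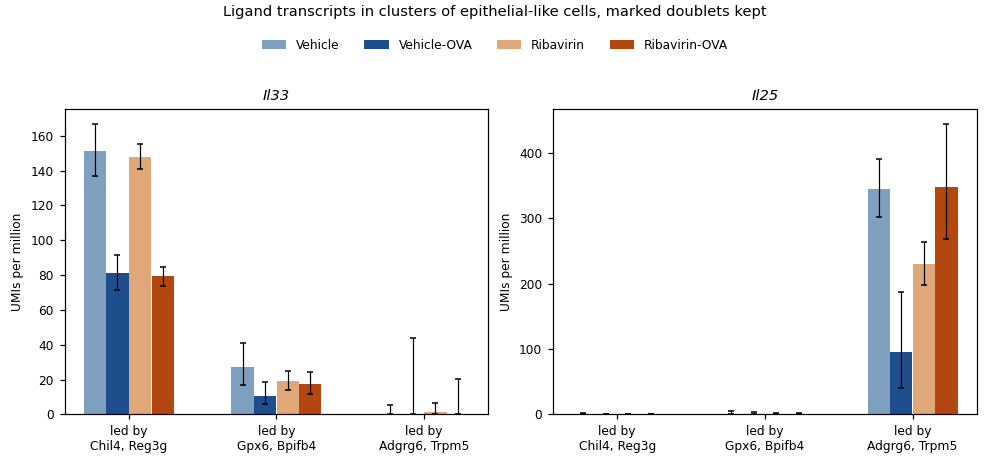
CPM of Il33 and Il25 in 3 epithelial-like clusters with marked doublets kept. A further epithelial-like cluster, with Mup4 and Obp2a among its top genes, is not drawn. Bars start at 0 and give the level of each library, with exact Poisson 95% intervals. In the cluster led by Chil4 and Reg3g the Il33 bars without OVA stand at 151 and 148 and those with OVA at 81.1 and 79.3, and Il25 is highest in the cluster with tuft cell genes.

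Il25 (ENSMUSG00000040770, chromosome 14, 54932695 to 54935837, plus strand) was carried by cluster 32, led by Adgrg6, Rgs13, Trpm5 and Avil. Tuft cells are chemosensory epithelial cells. Of 6 tuft cell genes the cluster held 89.5% of all UMIs of the ion channel Trpm5, 91.5% of Chat, which makes acetylcholine, 81.8% of Avil, 77.8% of the taste G protein Gnat3 and 77.5% of the transcription factor Pou2f3, but 10.2% of Dclk1. Cluster 32 had 83, 7, 93 and 10 cells and 188, 8, 166 and 62 Il25 UMIs. In the cluster Il25 stood at 407, 107, 269 and 465 CPM. Vehicle-OVA was lowest and Ribavirin-OVA highest, each on at most 10 cells. The OVA ratio was 0.262 (0.111 to 0.527) under vehicle and 1.73 (1.27 to 2.32) under ribavirin, and with marked doublets kept 0.275 (0.117 to 0.551) and 1.52 (1.13 to 2.02). Of the Il25 UMIs of all epithelial-like cells 1 cell held 29 of 188, 5 of 8, 23 of 166 and 29 of 65. The part of these single cells in the ratios was not tested. Neutrophil-like cells had 0 to 2 Il25 UMIs a library. The tuft cluster also held Il17rb, at 117, 213, 107 and 210 CPM, so that ligand and receptor transcripts lay in the same cluster. Over all cells Il25 had 1.52, 0.132, 1.27 and 0.866 CPM. Its closest genes were Hmx3 (r = 0.985), Gnat3 (0.976) and Hmx2 (0.973), Hmx2 and Hmx3 being homeobox transcription factors.

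Tslp (ENSMUSG00000024379, chromosome 18, 32815383 to 32819797, plus strand) had 65, 59, 84 and 67 UMIs in all kept cells. Macrophage-like cells had 32, 37, 17 and 40 UMIs, the highest count in all but Ribavirin, where monocyte-like cells had 19 and unnamed cells 24. This was 2.01 (1.38 to 2.84), 1.64 (1.16 to 2.26), 1.27 (0.740 to 2.03) and 2.32 (1.66 to 3.16) CPM. The 4 intervals overlap. The OVA ratio was 0.817 (0.495 to 1.35) under vehicle and 1.82 (1.01 to 3.43) under ribavirin. Of the macrophage-like cells 0.953% to 1.52% had a Tslp UMI at a median depth of 7652 to 9510 UMIs, as did 0.0494% to 0.130% of neutrophil-like cells at 2022 to 2895 UMIs. Epithelial-like cells had 0, 5, 13 and 15 Tslp UMIs. This was 0 (0 to 6.53), 1.34 (0.435 to 3.13), 1.77 (0.945 to 3.03) and 1.63 (0.910 to 2.68) CPM, intervals that overlap those of macrophage-like cells. With marked barcodes kept, the epithelial-like cluster led by Chil4 and Reg3g had 4.55 (2.35 to 7.95), 0.626, 1.31 and 1.74 CPM, on 12, 2, 15 and 18 UMIs. Tslp overlaps a gene on the opposite strand, 4930455D15Rik, which had 18 UMIs. Genes with a pattern close to it were Cp (r = 0.825) and Serpinb8 (0.823).

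Among the receptors, Il1rl1 codes for ST2, which binds IL-33. The gene (ENSMUSG00000026069) lies at 40429570 to 40465415 on the plus strand of chromosome 1, and Il18r1 begins 136 bases after its end on the same strand. Counts at the 3′ end do not tell the membrane form of ST2 from the soluble form.

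Its 2 RefSeq start sites (GRCm38) are shown because of the OVA ratios of Il1rl1. Among receptors with at least 20 UMIs over both libraries it had the largest ones in ILC2-like and regulatory T cell-like cells, under vehicle and under ribavirin. The 250 bases before each start were searched for the GATA-type motifs AGATAA and TGATAA and their reverse complements TTATCT and TTATCA, which are in capitals. The second window is shown for 248 of its 250 bases.
Il1rl1, chr1:40429320-40429569, plus strand: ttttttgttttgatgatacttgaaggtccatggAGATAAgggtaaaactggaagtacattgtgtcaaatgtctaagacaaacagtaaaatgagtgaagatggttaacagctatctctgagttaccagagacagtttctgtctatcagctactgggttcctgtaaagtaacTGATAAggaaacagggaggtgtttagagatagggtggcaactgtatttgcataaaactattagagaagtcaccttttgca
Il1rl1, chr1:40439379-40439626, plus strand: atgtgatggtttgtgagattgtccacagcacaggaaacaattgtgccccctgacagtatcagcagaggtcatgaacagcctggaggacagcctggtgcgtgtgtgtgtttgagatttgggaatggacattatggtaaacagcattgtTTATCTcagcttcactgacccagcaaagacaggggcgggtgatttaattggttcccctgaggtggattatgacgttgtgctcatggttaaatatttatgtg
The first window held motifs that begin 217 and 80 bases before the start, and the second held 1 that begins 103 bases before it. Of 32851 such windows of 27025 genes 16.6% held at least 1 of the motifs and 2.72% at least 2. Of the 10 windows found for 6 of the members only those of Il1rl1 held one. A match of letters is a description of the window and not a binding site.

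In ILC2-like cells Il1rl1 was higher with OVA in both pairs. The cluster, L15, had 100, 32, 94 and 69 cells, with Gata3, the transcription factor of type 2 lymphocytes, in 270 of 295 and Cd3d or Cd3e in 25. Il1rl1 stood at 573 (501 to 653), 1696 (1506 to 1904), 755 (679 to 837) and 2085 (1977 to 2196) CPM. Both OVA libraries were above both libraries without OVA. The OVA ratio was 2.96 (2.48 to 3.54) under vehicle and 2.76 (2.46 to 3.11) under ribavirin, and the ribavirin ratio 1.32 (1.11 to 1.56) without OVA and 1.23 (1.08 to 1.40) with OVA. Genes of like transcript length were also higher with OVA in this class, with a median log2 ratio of 0.54 and 0.48, beside log2 ratios of 1.56 and 1.46 for Il1rl1.

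The same order was seen in single cells. A UMI of Il1rl1 was found in 86.0%, 93.8%, 88.3% and 98.6% of ILC2-like cells, at a median depth of 3634, 3996, 4588 and 9143 UMIs, and in 0.249% to 4.85% of plasma cell-like cells, which should lack ST2, at 9961 to 18644 UMIs. With every cell thinned to 1000 UMIs the shares were 39.0%, 78.1%, 48.9% and 81.2%. The cells with a UMI held 2.62, 9.60, 4.31 and 20.7 Il1rl1 UMIs each. The 10 mast cell markers summed to 254.7, 265, 183.5 and 6375 CPM of the class, with Tpsb2 and Tpsab1 at 0 in Ribavirin-OVA. The 8 basophil markers summed to 12.7, 147, 6.33 and 180.4 CPM, on 5, 25, 3 and 122 UMIs, and the 9 T cell markers to 690.3, 695, 689.6 and 1036. The part of the basophil and T cell markers in the result was not tested. Without the cells that had at least 3 mast cell markers the OVA ratios were 2.98 and 2.79, and without cells with Cd3d or Cd3e 3.03 and 2.79.

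A CD3+ cluster with ILC2 markers, L21, was seen in the OVA libraries only, with 44 cells in Vehicle-OVA and 98 in Ribavirin-OVA. All 142 cells had Cd3d or Cd3e, 137 had Cd4 and 142 had Gata3, while 3 had Kit and 5 had Foxp3. Calca, Il13, Il1rl1 and Il4 led it, and Il13 was found in 31 of 44 and 73 of 98 cells. The 9 T cell markers summed to 3075 and 3321 CPM there, so that L21 was T cell-like with type 2 cytokine genes, and it was not counted as ILC2-like. Il1rl1 stood at 1748 and 2229 CPM, and the cluster held 37.7% and 43.8% of all Il1rl1 UMIs of these libraries. Without L21 and the ILC2-like cluster the OVA ratio over all cells was 2.49 under vehicle and 4.30 under ribavirin. With L21 added to the ILC2-like cells the ratios in this joined set of T cell-like and ILC2-like cells were 3.03 and 2.88.

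Regulatory T cell-like cells, which suppress immune responses, held Il1rl1 at 168 (152 to 185), 480 (428 to 536), 148 (133 to 164) and 435 (392 to 482) CPM in 551, 126, 482 and 151 cells. The ratio of Ribavirin to Vehicle was 0.881 (0.764 to 1.02), and both libraries with OVA were above both without, at ratios of 2.86 (2.46 to 3.32) under vehicle and 2.94 (2.54 to 3.41) under ribavirin. Genes of like length had a median log2 ratio of 0.59 and 0.55, beside 1.51 and 1.56. Cells without OVA lay mostly in cluster L2 and those with OVA in cluster L16, and between these clusters the ratios were 2.98 and 3.13. The share of cells with a UMI was 28.9%, 42.1%, 29% and 51.0%. Mast cell-like cells (11, 7, 7 and 20) held 554, 1489, 213 and 1025 CPM, and basophil-like cells (5, 25, 15 and 30) held 80.2, 1095, 193 and 606, the first resting on 1 UMI.

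In the cycling cluster L8, which lay among the other T cells, Il1rl1 went from 8.67 and 11.3 CPM without OVA to 242 and 402 with OVA. The OVA libraries had 42 and 56 cells there, of which 5 and 15 with at least 3 ILC2 markers held 133 of 163 and 389 of 482 of the Il1rl1 UMIs. The 6 and 17 cells with at least 3 regulatory T cell markers held 134 and 443 of the same UMIs, so that the lists overlap here. The mast cell markers had 7466 and 24311 UMIs in these cells and 59 and 106 in the 423 and 278 cells without OVA, and their part in the result was not tested. With L8 left out the OVA ratio in other T cells went from 15.2 to 8.66 under vehicle and from 15.1 to 2.19 under ribavirin. The genes closest to Il1rl1 were Izumo1r (r = 0.788), Ccr3 (0.782) and Tnfrsf4 (0.781).

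**Figure D3:**
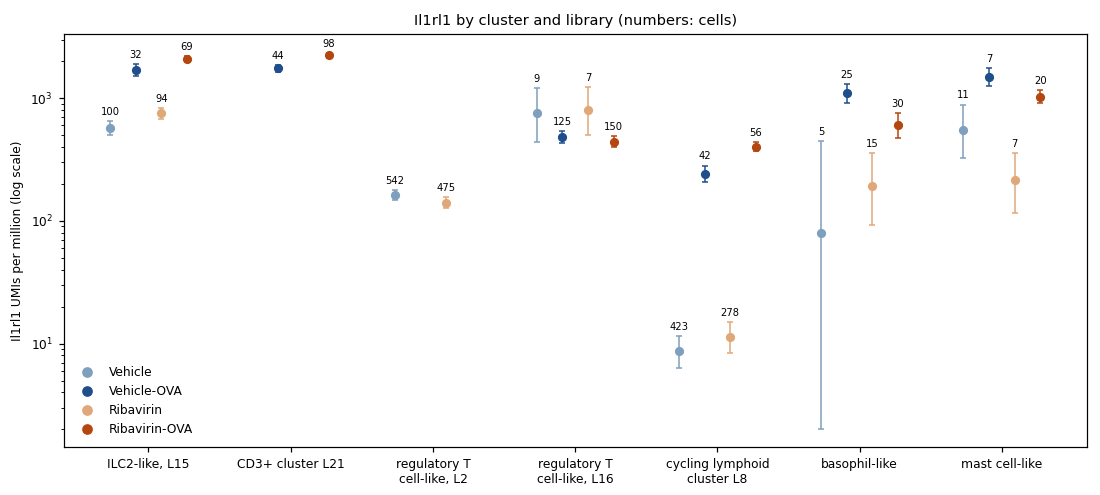
Il1rl1 in CPM (log axis) by lymphoid cluster and in basophil-like and mast cell-like cells, for libraries with at least 5 cells. Points are libraries, bars are exact Poisson 95% intervals, and the numbers are cells. In the ILC2-like cluster L15 the OVA libraries stand at 1696 and 2085 against 573 and 755 without OVA, and cluster L21 has points for the OVA libraries only.

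Il17rb (ENSMUSG00000015966, chromosome 14, 29996135 to 30008896, minus strand) codes for the chain that binds IL-25. In ILC2-like cells it stood at 191 (150 to 239), 271 (198 to 361), 181 (145 to 224) and 306 (266 to 351) CPM. The OVA ratio was 1.42 (0.960 to 2.07) under vehicle, an interval that includes 1, and 1.69 (1.31 to 2.20) under ribavirin. Genes of like length had a median log2 ratio of 0.39 and 0.28, beside 0.50 and 0.75. A UMI was found in 45.0%, 53.1%, 51.1% and 78.3% of these cells, and in 0.166% to 1.21% of plasma cell-like cells. Thinned to 1000 UMIs the shares were 15%, 15.6%, 19.1% and 23.2%. The CD3+ cluster L21 held 161 and 222 CPM, and with it added the ratios were 0.995 and 1.40. Plasmacytoid dendritic cell (pDC)-like cells held 7.21, 12.7, 6.98 and 10.0 CPM, ratios of 1.76 (1.05 to 2.89) and 1.44 (0.805 to 2.54). Without L15 and L21 the OVA ratio over all cells was 0.699 under vehicle and 1.43 under ribavirin.

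The gene most like Il17rb across classes was Chdh (r = 0.829), a choline dehydrogenase gene that lies head to head with it, followed by Nav2 (0.758) and Fbxl21 (0.744). The 126 bases between both genes are shown because they separate starts on opposite strands, and reads of the overlapping gene Actr8, also on the opposite strand, can be told apart only with strand.
Il17rb to Chdh gap, chr14:30008897-30009022, minus strand: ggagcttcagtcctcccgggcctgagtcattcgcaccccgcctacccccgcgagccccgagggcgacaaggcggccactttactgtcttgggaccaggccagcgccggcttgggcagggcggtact
The gap held none of the GATA-type motifs. Chdh had 2831 UMIs in the kept cells, Actr8 5478 and Il17rb 1346.

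Il7r (ENSMUSG00000003882, chromosome 15, 9505788 to 9530176, minus strand) codes for the chain that serves both the IL-7 and the TSLP receptor. It was high in ILC2-like cells, at 1421, 1402, 1211 and 1331 CPM, with OVA ratios of 0.986 (0.844 to 1.15) and 1.10 (0.989 to 1.22). Both intervals include 1. Between T cell clusters without and with OVA the ratios differed by cluster. From L1 to L9 they were 0.909 (0.865 to 0.955) and 1.02 (0.972 to 1.06), from L0 to L5 1.63 (1.56 to 1.70) and 1.90 (1.80 to 2.00), and from L10 to L6 1.43 (1.31 to 1.56) and 1.07 (0.983 to 1.17). Regulatory T cell-like cells were at 767, 1142, 875 and 908.

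In macrophage-like cells Il7r stood at 19.4 (17.3 to 21.7), 98.1 (94 to 102), 27.4 (24.6 to 30.3) and 55.8 (52.3 to 59.4) CPM. The OVA ratio was 5.05 (4.48 to 5.71) under vehicle and 2.04 (1.81 to 2.31) under ribavirin. The 9 T cell markers summed to 24.3, 18.2, 21.2 and 23.8 CPM in these cells (Trat1 at 0 in 3 libraries), with the lowest sum in Vehicle-OVA, where Il7r was highest. The share of macrophage-like cells with an Il7r UMI was 8.59%, 25.2%, 12.6% and 20.7%, against 1.5% to 2.97% of neutrophil-like cells, at median depths of 7652 to 9510 and 2022 to 2895 UMIs. The macrophage-like cells lay in different clusters. Cluster 10, led by Ccl12 and Ccl7, had 1494, 101, 1143 and 101 cells, and cluster 5, led by Ccl24, Arg1, Fn1, Spp1 and Retnla, had 43, 2238, 74 and 1499. Within cluster 10 Il7r stood at 17.1, 11.4, 22.8 and 15.2 CPM and within cluster 5 at 98.3, 103, 95.5 and 59.1. Within cluster 10 the OVA libraries had 14 and 21 UMIs and intervals that overlap those of their partners, and within cluster 5 Vehicle-OVA and Vehicle had overlapping intervals while Ribavirin-OVA was below Ribavirin.

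pDC-like cells held 293 (280 to 306), 583 (550 to 617), 310 (294 to 327) and 537 (507 to 568) CPM, OVA ratios of 1.99 (1.85 to 2.14) and 1.73 (1.60 to 1.87). Migratory dendritic cell-like cells held 201, 347, 208 and 420, ratios of 1.73 (1.46 to 2.03) and 2.02 (1.71 to 2.39). Natural killer (NK) cell-like cells went the other way, with 54.3, 21.1, 91.5 and 32.7, ratios of 0.389 (0.173 to 0.768) and 0.358 (0.231 to 0.534). NK cell-like cells lay almost wholly in cluster L4 without OVA and in L19 with OVA, and Vehicle-OVA rests on 9 UMIs in 4 cells. B cell-like cells held 77.2, 31.6, 296 and 160.3, and their T cell markers moved the same way, at 75.4, 27.8, 145 and 40.9 CPM. The closest genes to Il7r were Xlr4a (r = 0.857), Il27ra (0.852) and Lrch3 (0.851).

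Crlf2 (ENSMUSG00000033467, chromosome 5, 109554709 to 109558993, minus strand) codes for the chain that gives the TSLP receptor its specificity. It was lower with OVA in myeloid, plasma cell-like and regulatory T cell-like cells. Macrophage-like cells held 168, 92.9, 171 and 81.7 CPM, monocyte-like cells 155, 86.4, 162 and 83.9, and neutrophil-like cells 213, 104, 177 and 124. Both OVA libraries were below both libraries without OVA in each of these classes. The OVA ratios under vehicle and ribavirin were 0.553 (0.522 to 0.586) and 0.479 (0.448 to 0.512) in macrophage-like cells, 0.558 and 0.519 in monocyte-like cells and 0.489 and 0.700 in neutrophil-like cells. Migratory dendritic cell-like cells were lower than these classes, at 29.8 and 37.1 with OVA against 88.0 and 114 without, ratios of 0.339 (0.200 to 0.543) and 0.324 (0.189 to 0.523). Regulatory T cell-like cells had ratios of 0.523 and 0.560 and plasma cell-like cells 0.534 and 0.462. The largest cluster without and with OVA was L2 and L16 in regulatory T cell-like cells, and 14 and 23 in plasma cell-like cells. The order of clusters by size also differed in migratory dendritic cell-like cells. The part of these clusters in the ratios was not tested. Genes of like length had median log2 ratios of -0.64 and 0.09 in neutrophil-like cells and -0.16 and -0.10 in macrophage-like cells, and the log2 ratios of Crlf2 were -1.03 and -0.51 in the former and -0.85 and -1.06 in the latter.

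Within macrophage cluster 10 Crlf2 stood at 171, 108, 173 and 93.9 CPM and within cluster 5 at 101, 92.3, 143 and 80.5, so that the OVA libraries were lower inside cluster 10. In cluster 5 the interval of Vehicle (37 UMIs, 71.1 to 139) includes the level of Vehicle-OVA, while Ribavirin-OVA was below Ribavirin. Monocyte-like cells lay mainly in cluster 1 without OVA, and in cluster 17 with OVA, and Crlf2 was lower with OVA within both (157, 96.5, 166 and 78.1 CPM, then 123, 81.5, 129.8 and 85.6). Neutrophil-like cells also lay in different clusters, and Crlf2 was lower with OVA in both pairs within cluster 3 (214, 98.3, 191 and 114.6 CPM), while within clusters 11 and 21 the intervals of each OVA pair overlap. The main neutrophil-like clusters were 7, 4 and 11 in Vehicle-OVA and 0, 4 and 21 in Ribavirin-OVA. Levels within clusters 0, 4 and 7 are not given here, so that no statement is made for them. In ILC2-like cells Crlf2 stood at 56.0, 64.8, 110 and 108, with ratios of 1.16 (0.506 to 2.49) and 0.984 (0.680 to 1.43), and in NK cell-like cells the ratios were 0.902 (0.592 to 1.34) and 0.847 (0.622 to 1.14). A difference was not detectable in either class at this depth. Epithelial-like cells were low, at 30.1, 8.31, 6.55 and 5.31. The closest genes were Fxyd5 (r = 0.832), Bin2 (0.826) and Nckap1l (0.825).

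Il18r1 (ENSMUSG00000026070, chromosome 1, 40465552 to 40500854, plus strand) binds IL-18, a cytokine of type 1 responses. In the T cell classes together it stood at 353, 574, 324 and 623 CPM, in 5787, 1405, 3903 and 1745 cells. The OVA ratios were 1.63 (1.57 to 1.69) and 1.92 (1.86 to 1.99), while over all cells the vehicle ratio was 0.712. As shares of their library, other T cells (15.4%, 3.36%, 11.9% and 6.67%) and regulatory T cell-like cells were lower with OVA in both pairs. CD8 T cell-like cells were higher in both. The class of L1 and L9 was lower under vehicle and higher under ribavirin, at 5.43%, 2.19%, 5.02% and 6.65%. Between T cell clusters L1 and L9 the ratios were 1.51 (1.41 to 1.62) and 2.23 (2.10 to 2.37), between L0 and L5 1.61 and 1.69, and between L11 and L22 1.15 (0.907 to 1.45) and 2.36 (2.07 to 2.69). Genes of like length in T cell classes were higher too, and centring on all genes lowered the log2 ratio of the T cell classes from 0.70 and 0.94 to 0.31 and 0.57. In CD8 T cell-like cells the ratio from L10 to L6 was 2.57 (2.27 to 2.92) under vehicle, but the class lost its large OVA cluster under 5 of the alternative settings and the ratio was then below 1. NK cell-like cells stood at 226, 153, 231 and 234, ratios of 0.675 (0.511 to 0.878) and 1.01 (0.856 to 1.2). Genes with a pattern close to it were Zap70 (r = 0.965) and Cd247 (0.95), both of T cell receptor signalling.

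**Figure D4:**
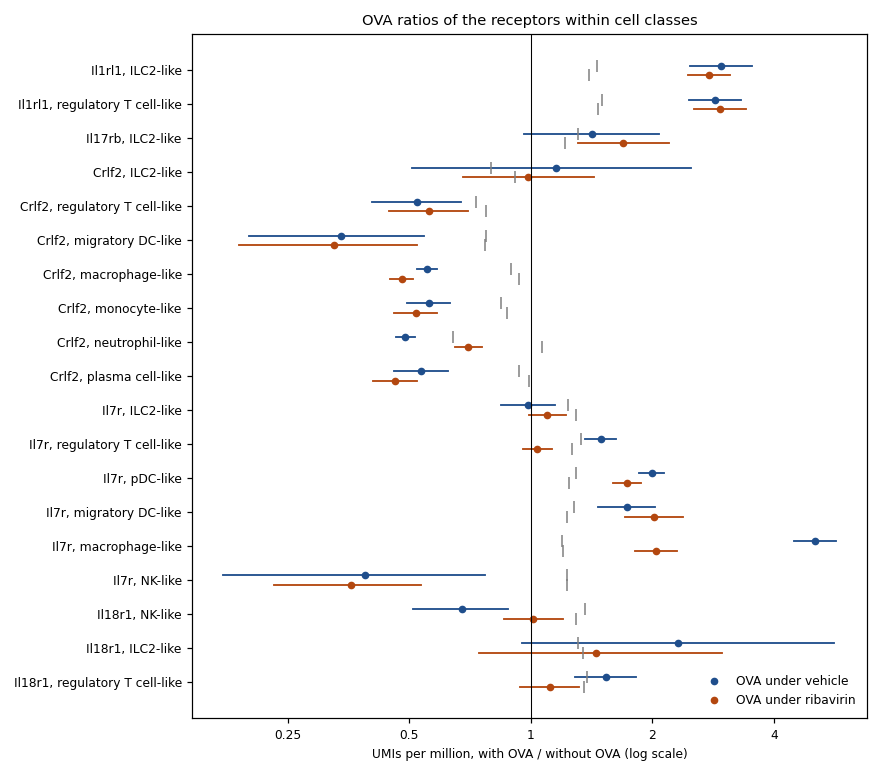
OVA ratios (log axis) of the receptor genes within cell classes, under vehicle and under ribavirin. Points are ratios of CPM, bars are exact conditional binomial 95% intervals for counting error, and grey ticks mark the median ratio of genes of like transcript length. Il1rl1 lies near 3-fold in ILC2-like and regulatory T cell-like cells, and Crlf2 lies below 1 in myeloid cells.

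Receptor transcripts were counted in the same cells, and the joint counts were not set against those of independent detection. Of 100, 32, 94 and 69 ILC2-like cells 86, 30, 83 and 68 had Il1rl1. Il17rb was found in 45, 17, 48 and 54 of them all and Il7r in 95, 30, 93 and 69. Of the cells with Il1rl1 40, 16, 42 and 53 also had Il17rb and 81, 28, 82 and 68 also had Il7r. Il13 was found in 12, 4, 10 and 26 ILC2-like cells, of which 8, 3, 6 and 24 had Il17rb. These were 66.7%, 75%, 60% and 92.3%, against 42.0%, 50%, 50% and 69.8% of cells without Il13, which had a lower median depth. In L21 38 of 44 and 85 of 98 cells had both Il1rl1 and Il7r, and 26 and 63 had both Il1rl1 and Il17rb. Both chains of the TSLP receptor, Crlf2 and Il7r, were seen in 234, 42, 233 and 50 regulatory T cell-like cells. The median depth of ILC2-like cells was 3634, 3996, 4588 and 9143 UMIs, and its part in these counts was not tested.

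The other genes of these pathways were read from lists, whose counts past 2-fold are given for OVA under vehicle and under ribavirin. In macrophage-like cells 10.8% of genes were higher and 5.97% lower under vehicle, and 8.48% and 4.27% under ribavirin. Of 5 members with enough UMIs 1 was higher (Il7r) and 0 lower under vehicle, and 1 was higher (Il7r) and 1 lower (Crlf2) under ribavirin. Of 8 genes of the JAK-STAT branch 4 were higher in each pair and 0 lower. Cish, which restrains STAT5 and is induced by it, went from 10.6 to 54.6 and from 11.1 to 43.9 CPM, 5.17-fold (4.39 to 6.11) and 3.97-fold (3.33 to 4.77). Socs2, a related inhibitor, was 15.6-fold and 9.12-fold higher, the kinase gene Jak2 5.05-fold and 3.45-fold, and Stat5a 2.56-fold and 2.41-fold. Of 9 genes of the MyD88 and Act1 branch 4 and 1 were higher, Myd88 in both (2.69-fold and 2.11-fold). Of 4 co-receptor chains 3 and 1 were higher, Il1rap, the partner of ST2, in both (7.09-fold and 2.90-fold). Il18 was lower, at ratios of 0.458 (0.387 to 0.543) and 0.439 (0.356 to 0.540). Centred on all genes, the share of calls that were higher went from 64.4% to 47.6% and from 66.5% to 44.2%. As for Il7r, cells with and without OVA lay in different macrophage-like clusters.

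In ILC2-like cells 19.2% of genes were higher and 8.36% lower with OVA under vehicle, and 17.8% and 4.96% under ribavirin. Of 5 members with enough UMIs 2 were higher (Il1rl1 and Il18r1, the latter on 12 UMIs in each library, which lay in 1 cell of Vehicle-OVA) and then 1 (Il1rl1), and 0 were lower. JAK-STAT genes gave 3 of 6 higher under vehicle, and 1 higher and 1 lower of 8 under ribavirin. Those of the MyD88 and Act1 branch gave 4 of 4 and 0 of 8 higher. Il13, which was among the naming markers of the class, stood at 45.9, 212, 92.8 and 278 CPM, 4.62-fold (2.56 to 8.65) and 3.00-fold (2.15 to 4.26) higher with OVA. Csf2, the gene of the growth factor GM-CSF, was lower. It had 50 UMIs in Vehicle and 0 in Vehicle-OVA, where 3 counts would be 17.7 CPM, and 71.7 CPM in Ribavirin against 8.87 in Ribavirin-OVA. Centred on all genes, the share of calls that were higher went from 69.6% to 41.2% and from 78.2% to 49.3%.

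In regulatory T cell-like cells 14.6% of genes were higher and 6.44% lower under vehicle, and 11.7% and 5.54% under ribavirin. One of 4 members, Il1rl1, was higher in both pairs and 0 were lower. Of 8 JAK-STAT genes 2 and 1 were higher, Cish in both, at 2.04-fold (1.78 to 2.33) and 2.09-fold (1.87 to 2.34). Centring moved the share of higher calls from 69.4% to 30.9% and from 67.9% to 25.8%.

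In migratory dendritic cell-like cells Crlf2 was lower and Il7r higher with OVA in both pairs, and several JAK-STAT genes were higher. There 17.4% of genes were higher and 8.54% lower under vehicle, and 17.5% and 9.51% under ribavirin. Of 3 members with enough UMIs 0 were higher and 2 lower (Crlf2 and Il18r1, the latter on 18 and 2 UMIs) under vehicle, and of 2 under ribavirin 1 was higher (Il7r) and 1 lower (Crlf2). Of 8 JAK-STAT genes 5 and 4 were higher. Socs2 went from 283 to 850 and from 228 to 822 CPM, 3.00-fold (2.67 to 3.37) and 3.61-fold (3.16 to 4.12). Stat5a was 4.62-fold and 2.76-fold higher, Cish 3.73-fold and 3.89-fold and Jak2 2.00-fold and 2.11-fold. The inhibitory receptor gene Sigirr was 2.71-fold and 2.57-fold higher, on 11 to 20 UMIs a library. Centring moved the share of higher calls from 67.1% to 38.5% and from 64.8% to 39.3%.

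Over all cells 9.44% and 6.32% of genes were higher with OVA and 5.19% and 1.16% lower. Centring moved the share of higher calls from 64.5% to 62.2% and from 84.5% to 44.2%. The type 2 effectors gave 2 and 3 of 5 higher. Il13 stood at 0.253, 5.31, 0.547 and 25.9 CPM and Il4 at 0.261, 6.12, 0.266 and 15, with OVA ratios of 21 and 47.3 for Il13 and 23.5 and 56.4 for Il4. Of 6 proteases that cut IL-33, 3 mast cell genes were higher in both pairs and 0 were lower. Cma1, a chymase gene, was 8.56-fold and 17.6-fold higher and Tpsb2, a tryptase gene, 123-fold and 100.2-fold. Mcpt4 had 3, 1456, 0 and 2946 UMIs. These 3 genes were also among the mast cell markers, which summed to 215.7, 1513, 342.9 and 1221 CPM over all cells. JAK-STAT genes gave 3 and 2 of 8 higher, Cish (3.57-fold and 2.18-fold) and Socs2 (2.48-fold and 3.26-fold) in both pairs. The MyD88 and Act1 branch gave 3 and 0 of 9 and the co-receptor chains 2 and 0 of 4. Of 4 related cytokines and inhibitors 0 were past 2-fold, and of 6 tuft cell genes Dclk1 was higher and Trpm5 lower under vehicle and 0 under ribavirin.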

How the data were processed

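Single-cell RNA-seq libraries (10x, 3′ end) of CD45+ nasal mucosa cells were used, 1 per group. The counts deposited by the authors are UMI counts per gene and cell, made with Cell Ranger 5.0.0 on mm10 per the submitters' processing notes. The annotation release is not given in the sources used here, and coordinates are those of GRCm38. The labels name magnetic sorting and the design text flow sorting.

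Barcodes under 200 genes, under 500 UMIs or over 10% mitochondrial UMIs were removed, and doublets were marked by simulated doublets at an expected 0.4% per 1000 barcodes (3.97% to 11.2% a library). Cells were clustered (2000 variable genes without the members, 30 principal components, 15 neighbours, Leiden resolution 1.0) with igraph 0.11.9 and leidenalg 0.10.2. Clusters were named from marker lists, and a rule added after seeing the clusters set apart those with Cd3d or Cd3e in over 50% of cells. Levels are UMIs per 1e6 UMIs (CPM) with exact Poisson intervals, shares have exact Clopper-Pearson intervals and ratios exact conditional binomial intervals at 95%, which cover counting error only. No test was made, as there was 1 library per group. Calls past 2-fold used a pseudocount of 1 and genes with at least 20 UMIs over both libraries. The named genes are the 8 members, the genes of the pathway lists and the 3 genes most like each member by Pearson's r. Some of the latter are not reported here. The scripts were tested on simulated data. The members and lists were chosen with earlier results of these data known. Alternatives were other cell filters, doublets kept, other clusterings, the mean over cells, another pseudocount and division by the median ratio. Total UMIs were 91742940 to 171873110 a library.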

Additional observations from a re-analysis of the deposited data

Results flagged for a closer look

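Il7r and Il18r1 over all cells stood on opposite sides of 1 in the OVA pairs. The OVA ratio of Il7r was 0.685 under vehicle and 1.123 under ribavirin, and that of Il18r1 was 0.712 and 1.5. In the tuft cell cluster the OVA ratio of Il25 was 0.262 under vehicle and 1.73 under ribavirin, on 8 UMIs in 7 cells of Vehicle-OVA. In Ribavirin-OVA 1 cell held 29 of the 65 Il25 UMIs of epithelial-like cells. With 1 library a group the difference between the pairs was not tested in any of these.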

How the results depend on the processing

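Of 535 values recomputed under the alternatives, 505 kept their direction, 366 moved by less than their counting interval, 164 moved by more and 5 reversed. The rest that changed sign did so from values within 2-fold, among them Tslp in macrophage-like cells under vehicle, Il17rb over all cells under vehicle, Il7r in the T cell classes, and Il18r1 in NK cell-like and CD8 T cell-like cells under ribavirin (the last from 0.81 to between -0.39 and -0.85). All 5 reversed values were the log2 OVA ratio of Il18r1 in CD8 T cell-like cells under vehicle, at -1.53, -1.49, -1.40, -1.41 and -1.38 (mitochondrial limit 5%, at least 2000 UMIs, resolution 0.5, resolution 2.0, members among the variable genes). Within-class OVA ratios past 2-fold went from 13 to 8 with doublets kept. The highest class was the same for 5 of 8 members with doublets kept, with members among the variable genes or with cells classed one by one, and the class with most UMIs for 5 under the latter settings and with each library clustered on its own. A pseudocount of 5 took the genes past 2-fold with OVA from 3625 to 1873. The other values are log2 OVA ratios. Il33 in epithelial-like cells under vehicle was 3.23 (limit 20%), 3.96 (2000 UMIs), 0.19 (doublets kept), 4.05 (resolution 2.0), 3.53 (members variable) and 3.29 (one by one). Under ribavirin it was -0.21 (2000 UMIs), -0.13 (doublets kept), -0.22 (resolution 0.5), -0.21 (resolution 2.0), -0.69 (one by one), -1.44 (mean over cells) and, added after seeing the data, -1.45 and -1.09 within the clusters led by Reg3g and Cyp2g1. Il1rl1 in ILC2-like cells was 1.30 (limit 5%) and 1.26 (divided by the median ratio) under vehicle, and 1.19, 1.18, 1.67 and 1.14 (limit 5%, doublets kept, one by one, median ratio) under ribavirin. In regulatory T cell-like cells it was 1.78 (own clustering) and 1.19, and 1.25 under ribavirin (median ratio). Crlf2 in macrophage-like cells was -1.02 and -1.03, and -1.23 and -1.27 (mean over cells, median ratio). Il7r there was 2.52, 1.79, 2.15, 1.60, 2.53, 1.94 and 2.16 (limit 20%, doublets kept, resolution 2.0, one by one, own clustering, mean over cells, median ratio), and 1.23, 0.71, 0.50, 1.27 and 0.82 (limit 5%, resolution 2.0, one by one, own clustering, median ratio) under ribavirin. Il18r1 in the T cell classes was 0.77, 0.63 and 0.31, and 1.06, 1.03 and 0.57 (doublets kept, one by one, median ratio). The cause was not tested in any case. Leaving out cells with Cd3d or Cd3e or with mast cell markers, adding L21, leaving out a macrophage cluster and leaving out L15 and L21 were also chosen after seeing the data. No paired analysis was possible because each group had 1 library and no replicate number. Tslp and the Il33 value of Vehicle are limited by depth.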
